A study of Mus musculus with 23 samples.

Results

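The genes described here are 10 members of the pathway that runs from the Src family of tyrosine kinases to YAP, a transcriptional co-activator held in check by Hippo signalling. They were chosen by name from 22350 annotated genes. They are the kinases *Src*, *Yes1*, *Fyn* and *Lyn*, the co-activators *Yap1* and *Wwtr1* (which encodes TAZ), the TEAD transcription factors *Tead1* and *Tead4*, and the Hippo kinases *Lats1* and *Lats2*.

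The study asked how loss of *Rptor*, which encodes the Raptor subunit of the growth-controlling kinase complex mTORC1, alters the identity of mouse intestinal stem cells. All groups were on the C57BL/6 strain, and the mice, like the donors of the organoids, were females and males of 8 to 12 weeks. Organoids, epithelial cultures grown from intestinal crypts, carried a tamoxifen-inducible Cre under the Villin promoter, which is active throughout the intestinal epithelium. RNA-seq covered WT organoids labelled VillinCre.ERT2.RPL22.HA (2 lines with 2 technical runs each), organoids labelled VillinCre.ERT2.Rptor.fl/fl (2 lines with 2 runs each), and 3 stem cell enriched (SCe) libraries of the WT genotype grown with 10 µM CHIR 99021 and 1.5 mM valproic acid. RPL22.HA is a ribosomal protein with a tag that allows ribosomes to be pulled down. The label of the *Rptor* fl/fl RNA-seq organoids lacks it, so the tag allele and the *Rptor* genotype cannot be told apart in RNA comparisons of these organoids. Ribo-seq, which sequences the RNA fragments protected by ribosomes (footprints), covered 3 libraries of *Rptor* fl/fl organoids with the tag and 3 SCe libraries. In mice it covered 3 animals labelled Lgr5Cre.ERT2.RPL22.HA and 3 labelled Lgr5Cre.ERT2.Rptor.fl/fl.RPL22.HA, taken 24 h after a single tamoxifen injection, with Cre driven from the promoter of the stem cell gene *Lgr5*. The labels give the WT and *Rptor* fl/fl samples as untreated, whereas the study's methods describe induction with tamoxifen.

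Src family kinases are attached to the inner face of the cell membrane and phosphorylate proteins of cell adhesions and many signalling proteins. In the Hippo pathway the kinases MST1 and MST2 activate LATS1 and LATS2, which phosphorylate YAP and TAZ and keep them out of the nucleus. Unphosphorylated YAP and TAZ enter the nucleus and act with TEAD factors on genes of growth and regeneration, and in the intestine YAP is known for its part in repair after injury. Most of this control acts on protein, so the RNA and footprint values below measure how much of each message was present or bound by ribosomes, not the activity of its product.

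RNA-seq runs held 23802944 to 67598878 assigned reads, organoid footprint libraries 1106178 to 8257457, and mouse libraries 772077 to 8238388. *Rptor* RNA fell in the *Rptor* fl/fl organoids against WT (log2 fold change −1.71, adjusted p = 0.0052), whereas *Rptor* footprints were not called lower in libraries labelled *Rptor* fl/fl, either in organoids (−0.53, adjusted p = 0.318) or in mice (−0.28, adjusted p = 0.15). Animals and libraries are therefore named by their labels throughout. SCe RNA library 1 stood apart from the other SCe libraries, and the SCe sums of 5 enterocyte markers ran from 229 to 6475 CPM (read counts scaled to a common library size). Markers of other tissues were low in organoids, with summed immune markers of at most 3.23 CPM over 8 genes and endothelial markers of at most 2.91 CPM over 4 genes. Fibroblast markers (6 genes) summed to at most 0.491 CPM in WT and *Rptor* fl/fl RNA, 3.96 to 6.25 CPM in SCe RNA and 3.80 CPM or less in footprints, and smooth muscle markers (6 genes) to at most 0.455 CPM, 1.27 to 1.62 CPM and 14.7 CPM or less. Mouse pulldowns held all of them, with summed immune markers of 292 to 326 CPM, fibroblast markers of 888 to 1330 CPM, and stem cell markers of 348 to 579 CPM beside enterocyte markers of 26150 CPM or more. In bulk samples of either kind, fewer cells of a type and less RNA per cell cannot be told apart.

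On a scale that allows genes to be compared, the TPM (a level corrected for transcript length and depth), *Yes1* was the most abundant of the 10 messages in WT organoids at 46.3 ± 1.79 TPM (SD, n = 2 lines). It was followed by *Yap1* at 41.7 ± 1.47, *Src* at 34.5 ± 0.75 and *Lats1* at 25.7 ± 1.37 TPM. *Tead1* stood at 13.2 ± 0.44 and *Lyn* at 9.01 ± 0.198 TPM, and no neighbours among these 6 overlapped between lines. *Wwtr1* (3.50 TPM), *Fyn* (2.89), *Lats2* (1.53) and *Tead4* (1.20) formed a low group in which each overlapped the next. Of each related pair, one message thus dominated in WT organoids, with *Yap1* above *Wwtr1*, *Lats1* above *Lats2* and *Tead1* above *Tead4*.

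In *Rptor* fl/fl organoids *Src* had the highest mean at 40.4 ± 3.78 TPM (n = 2 lines), but it overlapped *Yap1* at 38.5 ± 4.91, which overlapped *Yes1* at 34.9 ± 1.30 TPM. *Fyn* was the lowest there at 0.688 ± 0.313 TPM. In SCe organoids *Yap1* led at 30.0 ± 7.47 TPM (n = 3), and each gene overlapped the next down to *Wwtr1* at 12.02 ± 2.37 TPM. *Fyn* at 15.0 ± 1.02 TPM stood among the middle genes of the SCe group and at the foot of the *Rptor* fl/fl group.

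*Src* (ENSMUSG00000027646.15, at 157418444 to 157471862 on the plus strand of chromosome 2, mm10 build) encodes the founding kinase of the family. Its RNA was at 97.7 and 95.8 CPM in WT lines, 107 and 101 CPM in *Rptor* fl/fl lines, and 74.0, 56.9 and 62.7 CPM in the SCe libraries. The 3 groups did not overlap, with SCe the lowest. *Src* was not called between *Rptor* fl/fl and WT (log2 fold change 0.10, SE 0.0584, 95% interval −0.05 to 0.26, adjusted p = 0.249). It was lower in SCe than in WT by 0.56 on the log2 scale (SE 0.12, adjusted p = 0.0181) and higher in *Rptor* fl/fl than in SCe organoids (0.69, SE 0.126, adjusted p = 0.0113). These comparisons share libraries and are not independent of each other. The call against SCe was lost without *Rptor* fl/fl line 1 (adjusted p = 0.0808) or line 2 (adjusted p = 0.06), and the call in SCe against WT without either WT line (adjusted p = 0.103 and 0.096) or SCe library 3 (adjusted p = 0.0623).

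*Yes1* (ENSMUSG00000014932.15, chromosome 5 from 32611171 to 32687057, plus strand) encodes the close relative of Src that binds YAP and gave YAP its name. It was at 120 and 128 CPM in WT lines, 85.1 and 87.9 CPM in *Rptor* fl/fl lines and 78.4, 69.9 and 73.6 CPM in the SCe libraries. Both WT lines stood above all other libraries. *Yes1* fell by 0.52 on the log2 scale in *Rptor* fl/fl against WT (SE 0.0607, adjusted p = 0.0134) and by 0.73 in SCe against WT (SE 0.0741, adjusted p = 0.0029). The first call was lost without WT line 2 (adjusted p = 0.0511).

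*Fyn* (ENSMUSG00000019843.14, chromosome 10 from 39368855 to 39565381, plus strand), a kinase best known from T cells and neurons, had the widest range of the 10 genes. It was at 7.25 and 2.70 CPM in WT lines, 0.755 and 1.22 CPM in *Rptor* fl/fl lines, and 29.2, 29.1 and 30.6 CPM in the SCe libraries. The SCe libraries lay far above the rest and close together, whereas the WT lines differed among themselves. *Fyn* was 29.7-fold lower in *Rptor* fl/fl than in SCe organoids (log2 fold change −4.89, SE 0.248, adjusted p = 0.0010), and it was called there and in SCe against WT (2.59, SE 0.44, adjusted p = 0.0098) under all 12 alternatives. Between *Rptor* fl/fl and WT it fell by 2.32 (SE 0.562, adjusted p = 0.0466). That call rested on single lines, since it was lost without WT line 1 (−1.45, adjusted p = 0.1), without *Rptor* fl/fl line 1 (−2.02, adjusted p = 0.15) and without *Rptor* fl/fl line 2 (−2.70, adjusted p = 0.0978). With an offset for effective length the call was lost too. Only 39 and 70 reads fell on *Fyn* in the *Rptor* fl/fl lines.

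*Lyn* (ENSMUSG00000042228.14, chromosome 4 from 3678115 to 3813122, plus strand) encodes a kinase best known from B cells and myeloid cells. It was at 22.8 and 23.9 CPM in WT lines, 18.1 and 16.5 CPM in *Rptor* fl/fl lines and 18.4, 20.0 and 19.4 CPM in the SCe libraries. The *Rptor* fl/fl lines lay below all others. *Lyn* fell by 0.43 on the log2 scale in *Rptor* fl/fl against WT (SE 0.0877, adjusted p = 0.032), and the call was lost whichever of the 4 lines was left out (adjusted p = 0.0971 and 0.173 without WT lines 1 and 2, 0.0533 and 0.102 without *Rptor* fl/fl lines 1 and 2). The 8 immune markers summed to 1.57 to 2.46 CPM in these lines.

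**Figure D1:**
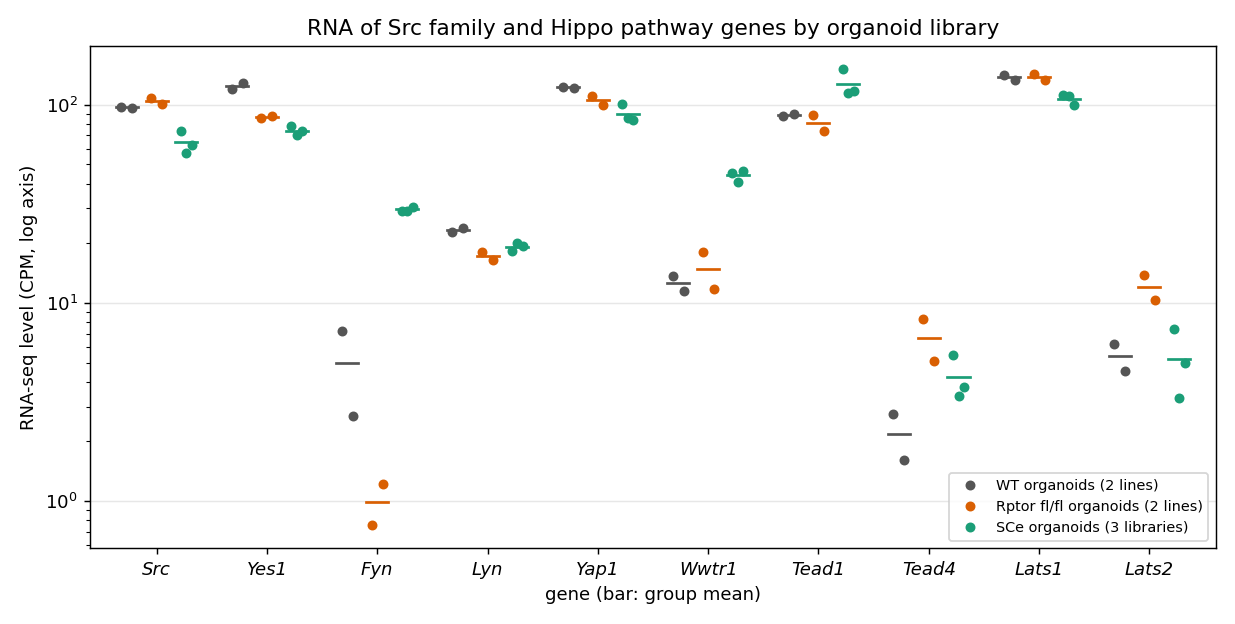
RNA level (CPM, log axis) of each gene in every organoid line or library, with runs of a line summed; points are the 2 WT lines, 2 *Rptor* fl/fl lines and 3 SCe libraries, and bars are group means. *Fyn* and *Wwtr1* are highest in the 3 SCe libraries, *Yes1* is highest in the 2 WT lines, and CPM is not corrected for gene length, so heights are to be compared within a gene.

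Among the co-activators, *Yap1* (ENSMUSG00000053110.13, chromosome 9 from 7931999 to 8004596, minus strand) was at 123 and 122 CPM in WT lines, 111 and 99.7 CPM in *Rptor* fl/fl lines, and 100.2, 85.6 and 83.4 CPM in the SCe libraries. WT lay above both other groups. *Yap1* was not called between *Rptor* fl/fl and WT (log2 fold change −0.22, SE 0.071, 95% interval −0.40 to −0.03, adjusted p = 0.0907). It was lower by 0.43 in SCe than in WT (SE 0.0956, adjusted p = 0.0213), a call that was lost without either WT line (adjusted p = 0.115 and 0.11), SCe library 2 (0.0648) or SCe library 3 (0.0625). By Salmon's estimate the longer transcript Yap1-201 took 66.2% and 62.3% of *Yap1* reads in the *Rptor* fl/fl lines against 52.6% and 48.8% in the WT lines, with 61.1%, 49.6% and 52.2% in the SCe libraries. This split is the quantifier's estimate and was not tested.

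*Wwtr1* (ENSMUSG00000027803.14, chromosome 3 from 57455649 to 57575910, minus strand) encodes TAZ, the paralogue of YAP, and differed from *Yap1* in these libraries. It was at 13.7 and 11.4 CPM in WT lines, 18.0 and 11.8 CPM in *Rptor* fl/fl lines and 45.4, 40.9 and 46.0 CPM in the SCe libraries. All SCe libraries stood above all others, and the WT and *Rptor* fl/fl lines overlapped. *Wwtr1* was 3.57-fold higher in SCe than in WT organoids (log2 fold change 1.83, SE 0.116, adjusted p = 0.0013) and 2.96-fold lower in *Rptor* fl/fl than in SCe (−1.57, SE 0.202, adjusted p = 0.0044), each under all 12 alternatives. Between *Rptor* fl/fl and WT it was not called (0.24, SE 0.23, 95% interval −0.35 to 0.84, adjusted p = 0.476).

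The TEAD factors bind DNA for YAP and TAZ. *Tead1* (ENSMUSG00000055320.17, chromosome 7 from 112679318 to 112906807, plus strand) was at 87.8 and 89.8 CPM in WT lines, 88.7 and 73.2 CPM in *Rptor* fl/fl lines, and 152, 114 and 117 CPM in the SCe libraries. SCe lay above both other groups, which overlapped. *Tead1* was higher in SCe than in WT (0.54, SE 0.143, adjusted p = 0.0342) and lower in *Rptor* fl/fl than in SCe organoids (−0.65, SE 0.168, adjusted p = 0.0301). The first call was lost without WT line 1 (adjusted p = 0.18), WT line 2 (0.161) or SCe library 3 (0.0598), and the second without *Rptor* fl/fl line 1 (0.0858), line 2 (0.173) or SCe library 3 (0.0588).

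*Tead4* (ENSMUSG00000030353.15, chromosome 6 from 128224288 to 128300823, minus strand) was at 2.76 and 1.61 CPM in WT lines, 8.30 and 5.07 CPM in *Rptor* fl/fl lines and 5.49, 3.39 and 3.77 CPM in the SCe libraries. Both *Rptor* fl/fl lines lay above both WT lines. *Tead4* rose 3.05-fold in *Rptor* fl/fl against WT (log2 fold change 1.61, SE 0.37, adjusted p = 0.0416). The call was lost without WT line 2 (1.28, adjusted p = 0.102), without *Rptor* fl/fl line 1 (1.21, adjusted p = 0.115) and with all RNA groups in 1 fit (adjusted p = 0.0567).

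*Lats1* (ENSMUSG00000040021.13, chromosome 10 from 7681214 to 7716460, plus strand), the more abundant of the YAP kinases, was at 140.5 and 134 CPM in WT lines, 143 and 133.5 CPM in *Rptor* fl/fl lines and 112, 111 and 99.2 CPM in the SCe libraries. The WT and *Rptor* fl/fl lines overlapped, with a log2 fold change of 0.01 and a 95% interval of −0.15 to 0.18 (adjusted p = 0.897). *Lats1* was lower in SCe than in WT (−0.33, SE 0.0784, adjusted p = 0.0245) and higher in *Rptor* fl/fl than in SCe (0.37, SE 0.0863, adjusted p = 0.0226). Both calls were lost without any single library of their groups except SCe library 1, with adjusted p values of 0.052 to 0.141 and of 0.0598 to 0.137.

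*Lats2* (ENSMUSG00000021959.16, chromosome 14 from 57689662 to 57758388, minus strand), itself known as a gene that YAP switches on, was at 6.21 and 4.54 CPM in WT lines, 13.8 and 10.4 CPM in *Rptor* fl/fl lines and 7.36, 3.33 and 4.95 CPM in the SCe libraries. The *Rptor* fl/fl lines lay above all others. *Lats2* rose 2.24-fold in *Rptor* fl/fl against WT (log2 fold change 1.16, SE 0.224, adjusted p = 0.029) and was 2.33-fold higher than in SCe (1.22, SE 0.358, adjusted p = 0.044), while SCe and WT overlapped (−0.03, 95% interval −0.99 to 0.93). The first call was lost without WT line 2 (adjusted p = 0.0817), without *Rptor* fl/fl line 1 (0.0836) and with all RNA groups in 1 fit (0.113). The second was lost without either *Rptor* fl/fl line, without SCe library 2 (0.0712) or 3 (0.125), and with an offset for effective length.

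Counted together, 5 of the 10 genes were called between *Rptor* fl/fl and WT organoids, 2 higher (*Tead4* and *Lats2*) and 3 lower (*Yes1*, *Fyn* and *Lyn*), where 22.6% of all 14131 genes tested were called (11.6% higher and 11.0% lower). The median log2 fold change of the 10 was −0.06, beside −0.0049 over all genes. The groups did not overlap for 7 of the 10 genes, beside 69.0% of all genes with 2 lines against 2. Fewer of the 10 were called whichever line was left out, and fewer of all genes were too. With all RNA groups in 1 fit 3 of the 10 were called, where 821 of 15135 genes were called higher and 723 lower. The summed stem cell markers were 3561 to 5127 CPM in WT and 803 to 2042 CPM in *Rptor* fl/fl lines, and the summed goblet markers 1724 to 1860 and 2928 to 4064 CPM. The Paneth markers summed to 3587 to 4555 CPM in WT and 596 to 1257 CPM in *Rptor* fl/fl lines, with 4 of 5 called lower (median log2 fold change −2.05), and 2 of 5 enteroendocrine markers were called lower (median −1.20). The part of such shifts in these results was not tested.

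Between *Rptor* fl/fl and SCe organoids 6 of 10 were called, 3 in each direction, where 42.7% of 15103 genes were called (21.0% higher and 21.8% lower). Between SCe and WT organoids 7 of 10 were called, 3 higher and 4 lower, where 42.3% of 14925 genes were (22.4% higher and 19.9% lower). Without SCe library 1 these counts were 9 and 8. There 4582 of 14953 genes were called higher and 4519 lower in the former comparison, and 4744 and 4786 of 14855 in the latter. Without SCe library 3 both counts were 3. The all-gene calls were then 1833 higher and 2126 lower of 14668, and 2249 and 1793 of 14557. Member and all-gene counts also fell without either *Rptor* fl/fl line in the former and without either WT line in the latter. The groups did not overlap for 8 and 9 of the 10 genes, against 68.2% and 69.0% of all genes. Marker lists moved in the same libraries. SCe is the name of the culture. Its summed stem cell markers were 826 to 1606 CPM in RNA, below the 3561 to 5127 CPM of WT lines. Of 5 stem cell markers 2 were called lower and none higher in SCe against WT (median 0.11). In SCe against WT 4 of 5 enteroendocrine markers (median −4.54) and 3 of 5 goblet markers (median −2.52) were called lower, and both fibroblast markers tested (median 3.45) and both smooth muscle markers tested (median 7.78) were called higher, the direction of *Fyn* and *Wwtr1*. In *Rptor* fl/fl against SCe 4 of 5 goblet (median 3.36) and 2 of 5 enteroendocrine markers (median 2.80) were called higher, and 2 of 2 fibroblast and 2 of 3 smooth muscle markers lower. The part of these lists in the results for the 10 genes was not tested.

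**Figure D2:**
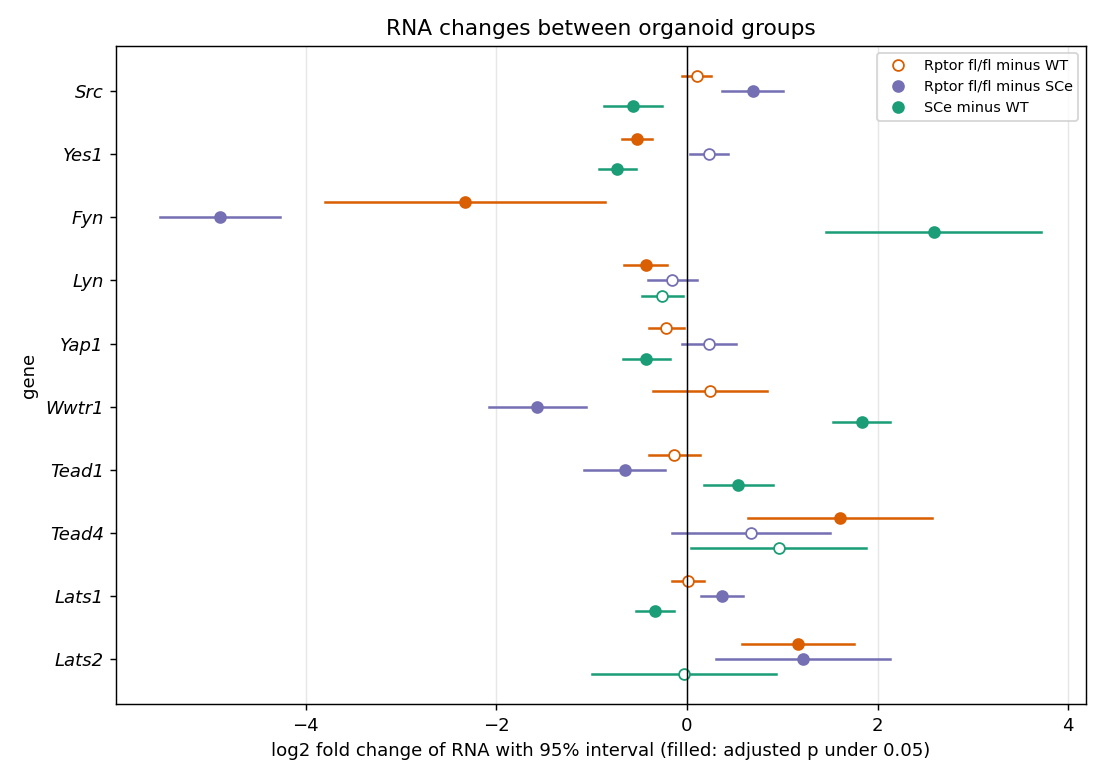
Log2 fold change of RNA for the 10 genes in the 3 organoid comparisons, which share groups; points are estimates, lines are 95% intervals and filled points have an adjusted p under 0.05. *Fyn* lies at −4.89 and 2.59 in the comparisons with SCe organoids, *Lats2* lies above 0 in both comparisons of *Rptor* fl/fl organoids, and *Src* and *Lats1* lie near 0 against WT.

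Promoter sequence was read for 7 of the 10 genes from RefSeq (GRCm38.p6, 250 bases before to 50 after the start site). *Lyn*, *Tead1* and *Tead4* had no entry. Both strands were searched for GGAATG, the core letters bound by TEAD factors, and for CTTTGA, core letters bound by TCF factors, which carry the Wnt signal that CHIR 99021 switches on. GGAATG or its reverse complement was in 3 of the 7 genes (*Yap1*, *Wwtr1* and *Lats2*) and in 14.7% of all 32851 promoters, and CTTTGA was in 2 of the 7 (*Wwtr1* and *Fyn*) and in 16.0%. The windows below are shown because *Fyn* and *Wwtr1* differed most between SCe and other organoids and because *Lats2* and *Yap1* are the genes of the YAP loop itself. Each is 30 bases, 5′ to 3′ on the strand of the gene, with the match in capitals.
Wwtr1, chr3:57576029-57576058, minus strand, match starting at −136 from the start site: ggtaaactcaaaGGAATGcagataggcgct
Wwtr1, chr3:57576064-57576093, minus strand, match starting at −171: gaaccattttctCTTTGAtcccgccccaag
Yap1, chr9:8004720-8004749, minus strand, match starting at −141: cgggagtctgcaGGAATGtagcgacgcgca
Lats2, chr14:57746102-57746131, minus strand, match starting at 5 after the start site: cgtgacgcccgtGGAATGccaacaatgtag
Fyn, chr10:39369691-39369720, plus strand, match starting at −96: cctcagcgggccCTTTGAtagggcagaaag
In *Wwtr1* a further match to the TCF letters on the other strand, starting at −141, overlaps the TEAD letters by a base. A match of 6 letters is a description of the sequence and does not show that a factor binds there.

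The other genes of the pathway were read from lists. In the RNA comparisons the number called over all genes fell without any WT or *Rptor* fl/fl line and without SCe library 2 or 3. It rose without SCe library 1. Of 12 YAP targets, 11 were tested between *Rptor* fl/fl and WT organoids, 7 were called higher and none of them lower by edgeR, where 11.6% of all genes were called higher, and the list median was 1.70. One gene, *Nt5e*, had a negative change with an unadjusted p under 0.05 (−1.25), and DESeq2 called 6 higher and 1 lower. With the replicate block edgeR called 7 higher and 1 lower. The number higher fell to 4 without WT line 2 or *Rptor* fl/fl line 1 and to 3 with all RNA groups in 1 fit. *Ccn1*, which encodes a matrix protein induced by YAP, was at 6.44 and 5.10 CPM in WT and 21.2 and 16.3 CPM in *Rptor* fl/fl lines (1.70, adjusted p = 0.0127). *F3*, tissue factor, was at 26.4 and 29.2 CPM in WT and 59.1 and 62.3 CPM in *Rptor* fl/fl lines (1.13, adjusted p = 0.0089). *Igfbp3*, which encodes a binding protein of insulin-like growth factors, was called higher at a low level (0.167 and 0.138 CPM against 1.01 and 1.29 CPM). *Ankrd1* was at 0.0567 and 0.0605 CPM in WT and at 8.40 and 2.89 CPM in *Rptor* fl/fl lines. The study named *Ankrd1* and *Myof* as YAP targets in such organoids and reported a YAP signature from this RNA-seq comparison. The list was also chosen with earlier results of these data known, so none of its entries is independent evidence of its direction.

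Against SCe organoids the targets split, with 3 called higher and 4 lower of 12 tested, where 21.0% and 21.8% of all genes were. The counts were 5 and 4 without SCe library 1, 3 and 2 without SCe library 3, 1 and 1 without *Rptor* fl/fl line 1 and 2 and 2 without line 2. The list median of 0.21 had no stable sign, since it was −0.22 without SCe library 2 and −0.0895 without SCe library 3. *Crim1*, which encodes a membrane protein that binds BMPs, was higher (0.98, adjusted p = 0.0017) and *Tgfb2*, a TGFβ ligand, lower (−2.34, adjusted p = 0.0034). In SCe against WT 4 were higher and 2 lower of 11, with a median of 1.19, where 22.4% and 19.9% of all genes were called. The counts were 6 and 3 without SCe library 1, 2 and 1 without WT line 1 and 1 and 0 without WT line 2. *Tgfb2* (4.15, adjusted p = 0.0017), *Ccn2* (3.58, adjusted p = 0.0076) and *Axl*, a receptor kinase (4.04, adjusted p = 0.0078), were among those higher, and of these *Tgfb2* was called under all 12 alternatives.

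Of 14 modulators of the pathway, 13 were tested. Between *Rptor* fl/fl and WT organoids 7 were higher and 1 lower, with a median of 0.56, where 11.6% and 11.0% of all genes were called. Without WT line 1 these counts were 4 and 0, and without WT line 2 they were 3 and 0. *Amotl1*, an angiomotin that binds YAP, was at 3.87 and 3.49 CPM in WT and 32.9 and 21.2 CPM in *Rptor* fl/fl lines (2.88, adjusted p = 0.0101). *Amotl2* rose by 1.48 (adjusted p = 0.0149), *Ajuba*, a LIM protein that binds LATS kinases, by 1.68 (adjusted p = 0.0137), and *Slmap*, part of the phosphatase complex acting on MST kinases, by 0.66 (adjusted p = 0.0132). The calls of *Amotl1*, *Amotl2* and *Ajuba* held under all 11 alternatives. Against SCe organoids 6 were higher and no others were called, with a median of 0.68, beside 21.0% of all genes higher, and 2 were called without *Rptor* fl/fl line 1. *Amotl2* (2.01), *Ajuba* (1.81), *Slmap* (0.79) and the cadherin *Fat1* (0.68) led there with adjusted p values of 0.004 to 0.00903. In SCe against WT, where 22.4% of all genes were called higher and 19.9% lower, only *Vgll4*, which competes with YAP for TEAD factors, was called (−1.07, adjusted p = 0.0048). Without SCe library 1 the calls were 2 higher and 4 lower, where 4744 and 4786 of all 14855 genes were called.

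The Hippo kinases and scaffolds moved in both directions. Between *Rptor* fl/fl and WT organoids 2 were higher and 2 lower of 15, with a median of 0.02, where 11.6% and 11.0% of all genes were called, so the share called was near that of all genes. The counts were 1 and 0 without WT line 1, without *Rptor* fl/fl line 1 or with all RNA groups in 1 fit, 0 and 1 without WT line 2, and 4 and 0 without *Rptor* fl/fl line 2. *Wwc2*, whose product activates LATS kinases, was higher (1.44, adjusted p = 0.0215), as was *Taok3* (0.30, adjusted p = 0.0477), and *Stk38l* (−0.42, adjusted p = 0.0392) and *Map4k4* (−0.29, adjusted p = 0.0483) were lower. Against SCe organoids 7 were higher and 4 lower of 15, where 42.7% of all genes were called in either direction, but 1 and 2 without *Rptor* fl/fl line 1, 4 and 1 without line 2 and 5 and 2 without SCe library 3. Among those higher were *Sav1*, the MST scaffold (0.92, adjusted p = 0.0068), and *Mob1a*, the LATS co-activator (0.46, adjusted p = 0.007), both lost without *Rptor* fl/fl line 1. In SCe against WT there were 5 in each direction, where 22.4% of all genes were called higher and 19.9% lower. Without either WT line there were fewer. *Wwc2* (1.36, adjusted p = 0.0018) and *Frmd6* (2.14, adjusted p = 0.0045) were among those higher, and *Stk38* (−0.71, adjusted p = 0.0028) among those lower.

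Among the regulators and substrates of Src, 2 of 14 were higher between *Rptor* fl/fl and WT organoids and no others were called, a share near the 11.6% of all genes called higher. With technical runs kept separate, which counts runs of a line as replicates, 6 were higher and 3 lower. In that fit 3566 of 13208 genes were called higher and 3642 lower. With the replicate block 4 were higher and 3 lower, where 2359 and 2392 of 14131 genes were. With all RNA groups in 1 fit 1 was higher, where 821 of 15135 genes were. Fewer were also called without WT line 1, WT line 2 or *Rptor* fl/fl line 1. The 2 genes called in the main fit were *Pag1*, which anchors the Src inhibitor CSK at the membrane (34.3 and 30.1 CPM against 80.7 and 62.4 CPM, 1.15, adjusted p = 0.0158), and the adhesion kinase *Ptk2b* (0.51, adjusted p = 0.0165), of which *Pag1* was called under all 11 alternatives. Against SCe organoids 7 of 14 were higher, where 21.0% of all genes were, led by the adhesion substrates *Pxn* (1.07, adjusted p = 0.0011) and *Bcar1* (1.37, adjusted p = 0.0021). In SCe against WT 1 was higher and 5 lower, where 22.4% and 19.9% of all genes were. The number lower was 8 without SCe library 1, where 4786 of 14855 genes were called lower. Of the other Src-related kinases, *Frk* had a mean RNA level of 100.3 CPM in WT, 89.0 CPM in *Rptor* fl/fl and 71.0 CPM in SCe organoids, and no other exceeded 5.15 CPM in any organoid RNA library. *Lck* was at 1.89 and 1.92 CPM in WT, 0.331 and 0.353 CPM in *Rptor* fl/fl and 5.15, 3.38 and 3.63 CPM in SCe organoids, which is the same order of groups as for *Fyn*, and was called in all 3 comparisons (adjusted p = 0.0109, 0.0021 and 0.0262). The last of these, SCe against WT, was lost without either WT line or SCe library 3. Of the other TEAD factors, *Tead2* was lower in *Rptor* fl/fl organoids against WT (−0.58, adjusted p = 0.0174) and against SCe (−1.25, adjusted p = 0.0153), and *Tead3* was lower in SCe than in WT (−0.85, adjusted p = 0.0129) and higher in *Rptor* fl/fl than in SCe (0.79, adjusted p = 0.0211). The calls against WT were lost without either WT line, that of *Tead2* also without *Rptor* fl/fl line 2, and both calls between *Rptor* fl/fl and SCe without either *Rptor* fl/fl line, that of *Tead3* also without SCe library 2 or 3. *Map3k20*, which encodes the stress kinase ZAKα, was not called in any comparison, with a log2 fold change of 0.07 between *Rptor* fl/fl and WT organoids (adjusted p = 0.62).

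**Figure D3:**
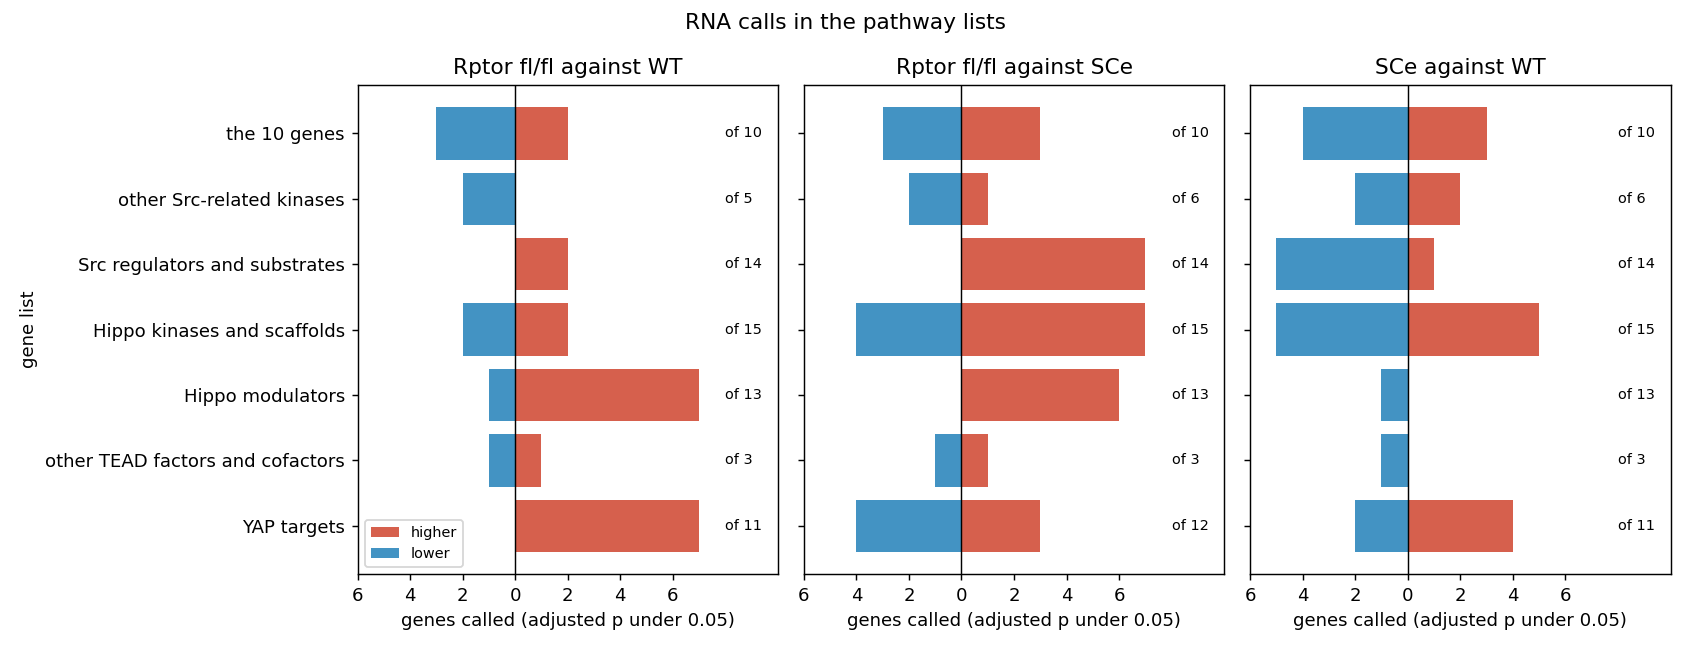
Number of genes called higher (right) or lower (left) at an adjusted p under 0.05 in each list, for the 3 RNA comparisons of organoids, with the number of genes tested at the right edge. YAP targets and Hippo modulators have 7 genes higher each in *Rptor* fl/fl against WT organoids, while the 10 genes themselves have 2 higher and 3 lower.

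The genes whose RNA pattern was most like that of *Src*, by Pearson's r of log2 CPM over the 7 organoid lines and libraries, were *Mum1* (0.999), *Smco4* (0.997) and *Npat* (0.996) of 15135 genes. For *Yap1* they were *Sacm1l* (0.999), *Tubgcp4* (0.993) and *Gm35315* (0.993). These are descriptions over libraries that share 3 groups.

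Footprints showed whether the RNA differences between *Rptor* fl/fl and SCe organoids were also present on ribosomes. *Fyn* had 5, 1 and 6 footprints (0.831, 0.159 and 0.731 CPM) in libraries labelled *Rptor* fl/fl and 17, 11 and 72 (9.22, 9.41 and 16.6 CPM) in the SCe libraries. The groups were far apart, and the log2 fold change was −4.33 (SE 0.555, adjusted p = 0.0022). *Wwtr1* had 4.65, 4.45 and 2.68 CPM in libraries labelled *Rptor* fl/fl and 27.1, 23.9 and 21.0 CPM in SCe libraries, again without overlap (−2.61, SE 0.304, adjusted p = 0.0015). These 2 genes were those called of the 8 with enough footprints to test, both lower, where 16.5% of 10817 genes were called (6.63% higher and 9.84% lower) and 39.3% did not overlap. The *Fyn* call was lost with an offset for effective length (−3.24, adjusted p = 0.127), which left 1 gene called, while that of *Wwtr1* held under all 11 alternatives. With that offset 262 of all 10817 genes were called higher and 387 lower.

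*Src* footprints were 23.8, 24.9 and 31.1 CPM in libraries labelled *Rptor* fl/fl and 25.0, 37.6 and 22.7 CPM in SCe libraries. The groups overlapped (log2 fold change −0.06, SE 0.246, 95% interval −0.61 to 0.50, adjusted p = 0.904), whereas *Src* RNA was higher in *Rptor* fl/fl organoids. *Yap1* footprints were 70.5, 92.1 and 84.0 CPM against 41.2, 81.3 and 70.3 CPM and overlapped (0.36, 95% interval −0.20 to 0.93, adjusted p = 0.357). *Yes1*, *Lyn*, *Tead1* and *Lats1* also overlapped, with log2 fold changes of −0.43 to 0.27. For *Tead1* the offset for effective length turned the sign to 2.58 (adjusted p = 0.195). *Tead4* had 0 to 6 and *Lats2* 0 to 6 footprints per library, too few to test, so the higher *Lats2* RNA in *Rptor* fl/fl than in SCe organoids could not be followed onto ribosomes at this depth. Of 6 YAP targets tested, *F3* was called higher (1.20, in 8 of 11 alternatives) and *Ccn2* lower (−3.99, in 4 of 11). The list median was −0.77, beside −0.023 over all genes. Of 15 Hippo kinases and scaffolds 3 were called lower and 0 higher, with *Frmd6* (−2.49) under all 11 alternatives. Of 14 Src regulators and substrates 2 were called higher. Over all genes 6.63% were called higher and 9.84% lower.

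The ratio of footprints to RNA, the translation efficiency, was tested as the interaction of assay and group. The *Rptor* fl/fl RNA came from organoids labelled without the tag and the footprints from tagged ones, so the ratio joins different genotypes. Paneth markers summed to 596 to 1257 CPM in *Rptor* fl/fl RNA and 6226 to 9315 CPM in footprints. In SCe organoids they summed to 865.5 to 3344 and 3409 to 5921 CPM. All 5 had a higher ratio in *Rptor* fl/fl organoids (median 2.10), and none was called. Their part in the results below was not tested. None of the 8 genes was called by edgeR's quasi-likelihood test or by DESeq2, where 2.93% of 10747 genes were called by the former (1.12% higher and 1.81% lower). In the edgeR fit 2177 of all 10747 genes had an unadjusted p under 0.05, and so did 2 of the 8. These were *Wwtr1*, whose footprints fell more than its RNA (log2 change of the ratio −0.996, SE 0.341, adjusted p = 0.138), and *Src* (−0.68, SE 0.276, adjusted p = 0.201). For *Yap1* the change was 0.18 with a 95% interval of −0.48 to 0.85. Of the pathway lists only *Ajuba* was called, with a lower ratio in *Rptor* fl/fl organoids (−2.34, SE 0.394, adjusted p = 0.0158), a call that was lost without *Rptor* fl/fl RNA line 1. The change was below 0 for all 6 YAP targets tested (median −1.295) and for 11 of 14 Src regulators and substrates (median −0.337). It was below 0 for 8 of 11 modulators (median −0.307) and above 0 for 9 of 15 Hippo kinases and scaffolds (median 0.068). The median over all genes was −0.031. DESeq2 also called 3 Src regulators and substrates and 1 Hippo kinase or scaffold lower, where it called 705 of 10747 genes lower.

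**Figure D4:**
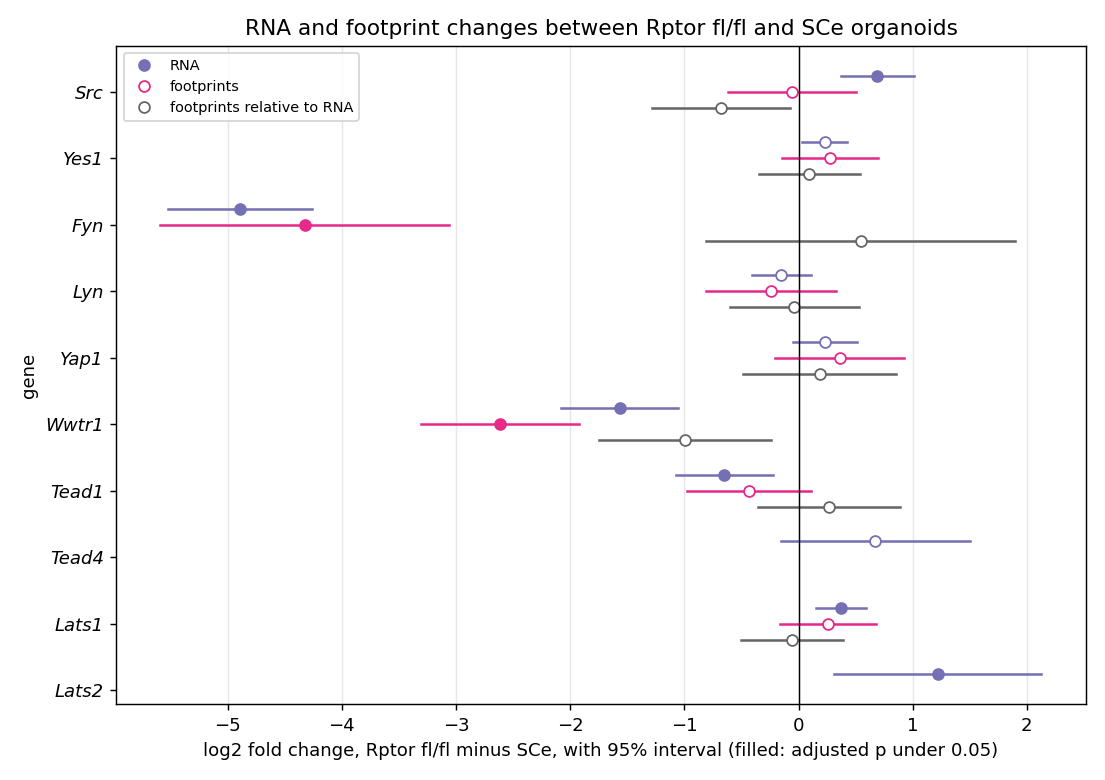
Log2 fold change between *Rptor* fl/fl and SCe organoids of RNA, of footprints and of footprints relative to RNA, with 95% intervals; filled points have an adjusted p under 0.05. *Fyn* and *Wwtr1* are lower in both RNA and footprints, *Src* is higher in RNA while its footprints lie near 0, and *Tead4* and *Lats2* had too few footprints to test.

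Within organoid footprints, levels per kilobase of sequence placed *Yap1* highest at 60.4 ± 8.86 CPM per kb in libraries labelled *Rptor* fl/fl and 46.1 ± 16.4 in SCe libraries (n = 3 each), followed by *Yes1* at 37.2 ± 0.188 and 30.5 ± 6.04 CPM per kb. In SCe libraries *Yap1* (28.2 to 60.4) and *Yes1* (26.0 to 37.3) overlapped. *Wwtr1* stood at 19.3 ± 2.29 CPM per kb in SCe libraries, where it overlapped *Tead1* and *Src*, and at 3.09 ± 1.03 in those labelled *Rptor* fl/fl, below *Lyn* and above *Fyn* without overlap.

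The organoid Ribo-seq files also list entries for the 5′ untranslated regions, which were left out of all counts above. Of all footprints, 2.97% to 6.98% fell on such entries in a library. For *Src* the share was far larger, with 295 of 850 footprints (34.7%, 26.7% to 47.3% by library) in libraries labelled *Rptor* fl/fl and 105 of 293 (35.8%, 27.4% to 52.6%) in SCe libraries. The ranges of the groups overlapped. In *Yap1* 3.86% and 5.75% of footprints fell there, in *Yes1* 7.26% and 9.60%, and in *Lats1* 7.64% and 9.20%. *Fyn* had 20.0% in SCe libraries, from 25 of 125 footprints. Sequence entries in the mouse files mostly include the 5′ region, so *Src* levels are not compared between mice and organoids.

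In mice, *Lyn* was the only gene of the 9 tested that was called, where 13.4% of 11515 genes were called (7.47% higher and 5.97% lower) and 31.1% did not overlap. Its footprints were 60.7, 72.6 and 62.3 CPM in the WT animals and 88.6, 87.7 and 83.0 CPM in the *Rptor* fl/fl animals. All *Rptor* fl/fl animals lay above all WT animals, and *Lyn* rose 1.32-fold (log2 fold change 0.40, SE 0.0998, adjusted p = 0.0157). The call was lost without WT mouse 3 (0.33, adjusted p = 0.132), without *Rptor* fl/fl mouse 2 (0.39, adjusted p = 0.0724) and with the offset for effective length (0.38, adjusted p = 0.0953), which left no member called. With that offset 393 of all 11515 genes were called higher and 290 lower. The 8 immune markers summed to 292 to 296 CPM in WT and 309 to 326 CPM in *Rptor* fl/fl animals, and none of them was at 0. Fibroblast markers rose from 888 to 947 CPM in WT to 1128 to 1330 CPM in *Rptor* fl/fl animals, with 5 of 6 called higher (median 0.48), and endothelial markers from 61.2 to 79.8 CPM to 98.5 to 101 CPM, with 2 of 4 called higher. Of 5 Paneth markers 3 were called lower (median −0.66), and of 5 stem cell markers 2 were (median −0.47). Of 5 goblet markers 2 were called higher (median 0.20), and of 5 enterocyte markers 2 were called higher and 1 lower (median 0.19). The part of these lists in the *Lyn* result and in the other mouse results was not tested.

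*Src* footprints were 86.0, 74.4 and 74.9 CPM in WT and 70.5, 80.1 and 85.7 CPM in *Rptor* fl/fl animals, which overlapped (0.05, 95% interval −0.17 to 0.27, adjusted p = 0.824). *Yap1* was at 45.5, 37.0 and 40.9 CPM against 48.1, 45.4 and 42.6 CPM (0.16, 95% interval −0.10 to 0.42, adjusted p = 0.454). *Yes1*, *Fyn*, *Wwtr1*, *Tead1*, *Lats1* and *Lats2* overlapped too, with log2 fold changes of −0.36 to 0.25. *Tead4* had 0 to 4 footprints per animal and was not tested. Per kilobase, *Src* at 41.1 ± 3.62 and *Lyn* at 36.9 ± 3.66 CPM per kb led in WT animals and overlapped each other (n = 3), and in *Rptor* fl/fl animals *Lyn* at 48.3 ± 1.81 lay above *Src* at 39.8 ± 3.96 CPM per kb without overlap.

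**Figure D5:**
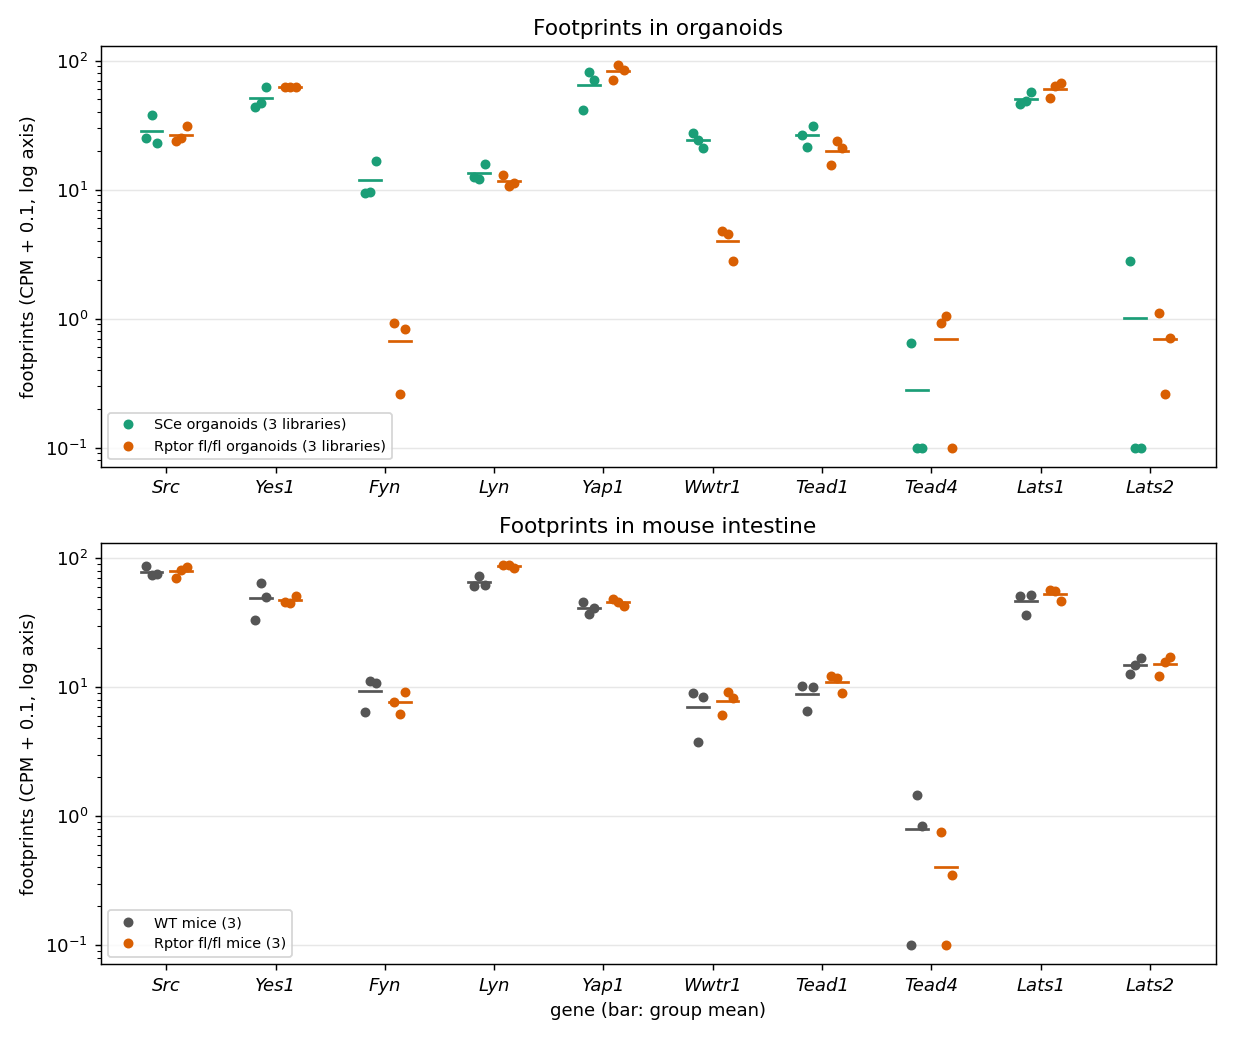
Footprints (CPM plus 0.1, log axis) of each gene in the 3 SCe and 3 *Rptor* fl/fl organoid libraries (top) and in 3 WT and 3 *Rptor* fl/fl mice (bottom); bars are group means. *Fyn* and *Wwtr1* separate the organoid groups, and *Lyn* separates the mice, with 60.7 to 72.6 CPM in WT and 83.0 to 88.6 CPM in *Rptor* fl/fl animals.

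In the pathway lists of mice, 2 of 5 tested Src-related kinases were called higher and none of the others, against the same background. These were the epithelial kinases *Ptk6* (25.3, 25.1 and 25.7 CPM against 38.5, 42.6 and 59.0 CPM, 0.91, adjusted p = 0.0020) and *Frk* (0.30, adjusted p = 0.0256). Of 10 YAP targets tested, *Nt5e*, which encodes the enzyme that makes adenosine outside the cell, was called, at 41.7, 45.7 and 40.2 CPM in WT and 94.5, 105 and 111 CPM in *Rptor* fl/fl animals (1.30, adjusted p = 6.4e-07), and the list median was 0.27 beside −0.02 for all genes. *Ankrd1* was at 0 in all WT animals and at most 0.329 CPM in *Rptor* fl/fl animals. Of Src substrates *Pxn* was called higher (0.38, adjusted p = 0.0218), and of Hippo genes *Mob1b* was higher (0.47, adjusted p = 0.0369) and *Wwc1* (−0.40, adjusted p = 0.0336), *Taok2* (−0.40, adjusted p = 0.0475) and *Dlg5* (−0.57, adjusted p = 0.0408) lower. The counts were 1 higher of 14 Src regulators and substrates, 1 higher and 2 lower of 15 Hippo kinases and scaffolds, and 1 lower of 12 modulators. Over all genes 7.47% were called higher and 5.97% lower. Of these calls in mice, those of *Nt5e* and *Ptk6* held under all 11 alternatives. The others were fragile, since *Pxn* was called in 6, *Frk* in 4, *Mob1b* in 3, *Wwc1* and *Dlg5* in 2 and *Taok2* in none of the 11, and DESeq2 called none of the Hippo genes. Leaving out *Rptor* fl/fl mouse 2 or WT mouse 2 or 3 ended each of these calls but those of *Nt5e* and *Ptk6*.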

How the data were processed

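Per the submitters' processing notes, reads were trimmed with cutadapt 1.18 and quantified with Salmon 1.1.0 (mm10); the study names coding sequences of GENCODE vM21. The deposited files give, for each transcript, an estimated count (expected count, not normalized) and the TPM computed by the authors' Salmon run. A deposited table of the authors' own translation efficiency ratios and p-values was not used.

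Estimated counts were summed per gene, rounded, and summed over technical runs. Entries with the suffix for 5′ regions were left out. Each of the 6 comparisons was fitted on all genes with edgeR 4.0.16 in R 4.3.3 (filterByExpr, TMM, quasi-likelihood test) with Benjamini-Hochberg adjustment at 0.05, on the libraries of its own groups. Translation efficiency was an interaction term. Fold changes are given with standard errors, and intervals are 95%. DESeq2 1.42.0, other size factors, no filter, an effective length offset, a replicate block, separate technical runs, a joint RNA fit and leaving out each replicate were alternatives. The fits were tested on simulated counts. RNA levels between genes use the deposited TPM. For footprints CPM per kb was used instead, a choice made after seeing the data, because short entries inflate the footprint TPM. Groups came from the labels, which do not say whether all organoid lines came from separate animals, so p-values measure the spread between these libraries. Counting error alone limits genes with few footprints. All 10 genes are named, with *Rptor* and *Map3k20* as checks, up to 4 called genes of smallest adjusted p per list and comparison, and the 3 genes most like *Src* and *Yap1*. *Lgr5*, also planned as a check, is reported only within the stem cell markers. *Myof*, *Lck* in some comparisons and genes given only by CPM were named for context. The genes and lists were chosen with earlier results of these data known. Nothing in the labels says that samples with the same replicate number share an animal or line, so the main fits have no block.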

Additional observations from a re-analysis of the deposited data

Results flagged for a closer look

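*Lyn* moved in opposite directions in organoids and mice. Both *Rptor* fl/fl organoid lines had less *Lyn* RNA than both WT lines (log2 fold change −0.43), and all 3 *Rptor* fl/fl mice had more *Lyn* footprints than all 3 WT mice (0.40). Of all genes tested, 69.0% did not overlap in the former comparison and 31.1% in the latter. The organoid call held in 7 of 11 alternatives and the mouse call in 8 of 11. The former is RNA from organoids and the latter footprints from tissue, and the difference between them was not tested. Groups of 3 or fewer samples were not searched for outlying samples.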

How the results depend on the processing

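Of 55 values for the 10 genes over the 6 comparisons, 21 were called, and none of these 21 changed sign under any alternative. Of the 665 alternative values 25 changed sign, all among genes that were not called, and the cause was not tested. The number of the 10 genes called between *Rptor* fl/fl and WT organoids was 5, was 1 to 3 when a line was left out, and was 3 with all RNA groups in 1 fit. Between *Rptor* fl/fl and SCe organoids it was 6, and 2 to 9 with a library left out. Between SCe and WT organoids it was 7, and 3 to 8 with a library left out. The number called over all genes changed with the library left out as well. In RNA the length offset removed the calls of *Fyn* between *Rptor* fl/fl and WT organoids and of *Lats2* between *Rptor* fl/fl and SCe organoids. For footprints the length offset left 1 call in organoids instead of 2 and 0 in mice instead of 1, and leaving out a mouse gave 0 to 1. Over all genes the offset called 262 higher and 387 lower of 10817 in organoids, against 717 and 1064 in the main fit. In mice it called 393 and 290 of 11515, against 860 and 687. Whether the replicate numbers pair the samples could not be settled for RNA, where same-numbered deviations correlated at 0.13 to 0.25 but each comparison has only 2 shared numbers, while the footprint values were −0.0440 to 0.034. With the replicate number as a block, 3 of the 10 genes were called between SCe and WT organoids, where *Src* (adjusted p = 0.0586), *Yap1* (0.0794), *Tead1* (0.066) and *Lats1* (0.115) lost their calls, *Lats1* (0.105) and *Lats2* (0.0588) lost theirs between *Rptor* fl/fl and SCe organoids, *Ajuba* lost its call for the footprint to RNA ratio, and the log2 fold change of *Lats2* in mice was 0.025. The counts of the other blocked fits stayed within 1.5 times. Over all genes the block called 1753 higher and 1401 lower of 14925 between SCe and WT organoids, against 3343 and 2966 in the main fit. Between *Rptor* fl/fl and SCe organoids it called 1673 and 1740 of 15103 in RNA, against 3165 and 3287. For the footprint to RNA ratio it called 2 and 2 of 10747, against 120 and 195. A length offset also gave 0.17 for *Lats2* between SCe and WT organoids, 2.58 for *Tead1* in organoid footprints and −0.040 for *Src* in mice. With a library left out, the values of *Wwtr1* (−0.091 to 0.53), *Tead1* (−0.28 to 0.014) and *Lats1* (−0.038 to 0.079) between *Rptor* fl/fl and WT organoids, of *Lats2* between SCe and WT (−0.36 to 0.21), and of *Src* in organoid footprints (−0.19 to 0.17) spanned 0. So did the footprint to RNA ratios of *Yes1* (−0.025 to 0.30), *Lyn* (−0.13 to 0.13), *Yap1* (−0.051 to 0.36) and *Lats1* (−0.14 to 0.055), and in mice *Src* (−0.025 to 0.13), *Yes1* (−0.23 to 0.067), *Wwtr1* (−0.094 to 0.59) and *Lats2* (−0.16 to 0.12). A lone line left in a group was taken to vary like the others. Few footprints limit *Fyn*, *Tead4* and *Lats2* in organoids.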
